A study of Mus musculus with 2 samples.

Results

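Claudins are small membrane proteins that pass through the plasma membrane several times and polymerise into the strands of tight junctions, the belt-like seals near the apical side of epithelial and endothelial cells. Some family members close the space between neighbouring cells, others form paracellular channels for cations, anions or water, and the mixture present sets how leaky an epithelium is. In the pregnant uterus the luminal epithelium, held together by such junctions, is the first layer that an embryo meets.

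The claudin genes described here were Cldn1, Cldn2, Cldn3, Cldn4, Cldn5, Cldn7, Cldn8, Cldn10, Cldn12 and Cldn15. They were taken by family name, their probe sets were found by symbol in the platform annotation of the array, and each gene was represented by its brightest probe set. Of these 10 genes, 9 were paired with a probe set of 1 gene (16 probe sets in all), out of 12393 such genes on the array; Cldn12, an atypical claudin, was not paired with one and is not analysed here.

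The Stat3 knockout sample and the control sample were each total RNA from mouse uterine epithelial cells, taken on day 4 of pregnancy, on 1 Affymetrix Mouse Genome 430A 2.0 array. The design text gives n = 3 for each sample and says that RNA was pooled, so an array reads a pool and not an animal. The knockout is labelled as such by its genotype and its sample description. Its title, which both samples share, names Stat3 flox control mice. By that title the control mice carried the floxed Stat3 allele. No source used here gives the strain, the age of the mice or the Cre line that would remove Stat3. Epithelium was freed by trypsin and squeezing, and what the pellets held besides epithelium is described by marker genes below.

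With 1 array in each group there is no replicate check, no difference has an SD over animals, and no p-value was computed. Values are MAS5 signals, the brightness of a probe set on a linear scale, and the number of arrays limits their precision. Both arrays had the same trimmed mean signal (150.0), medians of 30.7 in the knockout and 32.1 in the control, and 3' over 5' signal ratios, which rise with RNA degradation, of 0.699 in the knockout and 0.736 in the control for Gapdh and of 1.56 in the knockout and 1.504 in the control for Actb. A signal under a floor of 14.0, the 40th percentile of all signals that were not Affymetrix controls, was set to the floor, and a gene under it on both arrays has no ratio. Stat3, the targeted gene, had a signal of 186 in the knockout and 582 in the control (probe set 1460700_at), or 3.12-fold lower. A second Stat3 probe set, 1426587_a_at, had 160.0 in the knockout and 430.0 in the control, and the third, 1424272_at, was under the floor on both arrays. The place of these probe sets relative to the floxed exons was not looked up.

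Of the 8 claudins with a ratio, 4 were higher by 2-fold or more in the knockout array, 1 was lower by 2-fold or more, and 3 lay within 2-fold. The 4 higher ones were Cldn1, Cldn4, Cldn8 and Cldn15, and the lower one was Cldn10. Over all 8304 genes with a ratio, 7.37% were higher and 9.92% lower by 2-fold or more, or 17.3% in either direction; among the 8 claudins these shares were 50% higher and 12.5% lower. The median log2 ratio of knockout over control was 0.78 over the 8 claudins and 0.05 over all genes. Of the 8304 genes, 791 were under the floor on 1 array. They entered shares, medians and ranks at their bound, which can understate a difference. All 8 claudins were over the floor on both arrays. The remaining measured member, Cldn2, was under the floor on both arrays.

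**Figure D1:**
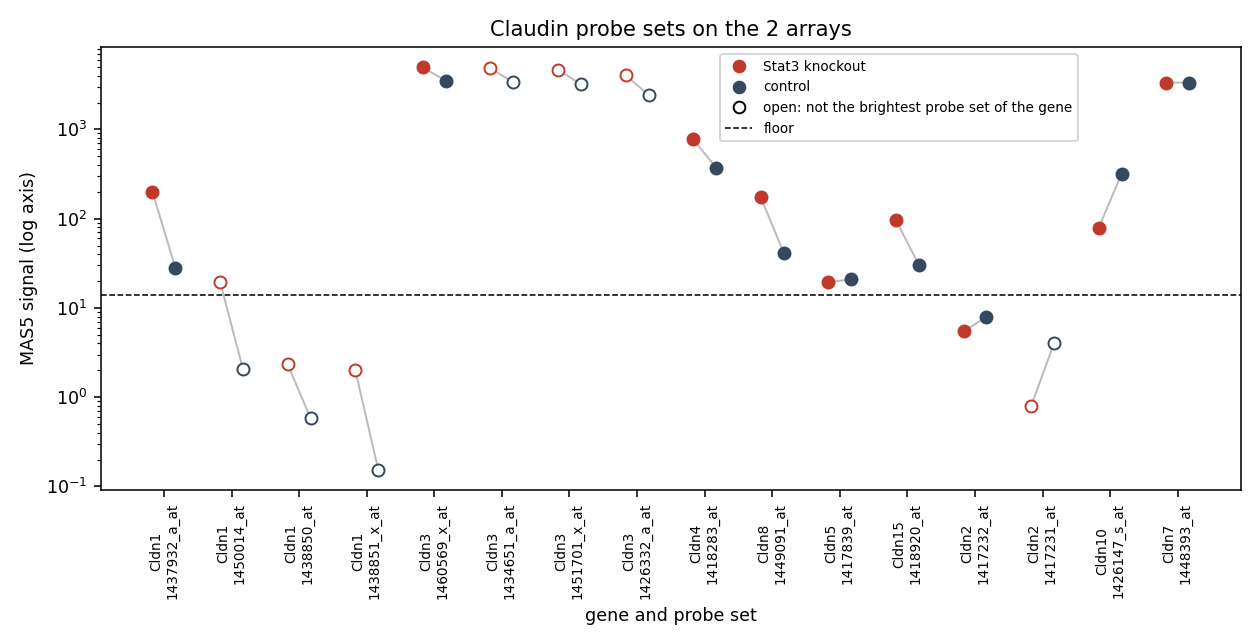
MAS5 signal (log axis) of each of the 16 claudin probe sets, with the knockout array on the left and the control array on the right of each pair; filled points are the probe set that represents the gene, open points its other probe sets, and the dashed line is the floor of 14.0. The knockout point is the higher of the pair in all 4 Cldn1 and all 4 Cldn3 probe sets and in Cldn4, Cldn8 and Cldn15. It is the lower in Cldn10. Of the Cldn1 probe sets, 2 lie under the floor on both arrays. Both of Cldn2 lie there too, with the knockout point the lower.

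The promoters of the claudins past the 2-fold limit are given below as the 250 bases before the annotated start. These are the genes that differed most between the arrays. Cldn7 was added because it differed least, and only its second start is printed. The first start of Cldn7 held none of the motifs searched. Cldn8 is named only. They are RefSeq sequences of build GRCm38.p6, written 5′ to 3′ in the direction of the gene, and the table held 9 of the 10 claudins with 13 starts. Capitals mark 4 searched motifs: the STAT site TTCNNNGAA, the E-box CAGGTG that Snail and Zeb repressors bind, and the GC box GGGCGG, each on both strands, and the TATA box TATAAA in the direction of the gene. The motifs do not overlap in the sequences shown.
Cldn1, chr16:26371840-26372089, minus strand: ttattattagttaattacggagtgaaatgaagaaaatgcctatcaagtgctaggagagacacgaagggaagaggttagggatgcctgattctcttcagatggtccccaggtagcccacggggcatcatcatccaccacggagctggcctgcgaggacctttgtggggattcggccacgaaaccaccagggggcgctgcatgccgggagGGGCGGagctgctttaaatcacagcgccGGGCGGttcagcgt
Cldn4, chr5:134946935-134947184, minus strand: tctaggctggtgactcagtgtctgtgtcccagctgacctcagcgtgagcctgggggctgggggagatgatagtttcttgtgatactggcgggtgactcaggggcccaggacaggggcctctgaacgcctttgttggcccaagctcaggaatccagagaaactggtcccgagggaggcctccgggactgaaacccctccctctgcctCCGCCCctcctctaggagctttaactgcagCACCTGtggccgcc
Cldn15, chr5:136967619-136967868, plus strand: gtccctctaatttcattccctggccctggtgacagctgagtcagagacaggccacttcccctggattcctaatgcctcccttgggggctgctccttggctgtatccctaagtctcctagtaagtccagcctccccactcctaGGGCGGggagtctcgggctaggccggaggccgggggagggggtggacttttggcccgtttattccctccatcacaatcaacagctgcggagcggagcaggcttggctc
Cldn10, first start, chr14:118787621-118787870, plus strand: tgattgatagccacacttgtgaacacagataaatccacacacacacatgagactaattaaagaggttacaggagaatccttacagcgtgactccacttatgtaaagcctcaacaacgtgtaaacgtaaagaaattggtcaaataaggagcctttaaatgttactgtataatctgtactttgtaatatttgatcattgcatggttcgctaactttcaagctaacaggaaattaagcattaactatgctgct
Cldn10, second start, chr14:118854700-118854949, plus strand: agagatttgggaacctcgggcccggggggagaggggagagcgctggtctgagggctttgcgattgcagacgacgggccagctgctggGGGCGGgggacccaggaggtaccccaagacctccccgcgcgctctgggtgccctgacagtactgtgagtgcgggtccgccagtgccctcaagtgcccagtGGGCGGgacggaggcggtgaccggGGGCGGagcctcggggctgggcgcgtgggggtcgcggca
Cldn7, second start, chr11:69965171-69965420, plus strand: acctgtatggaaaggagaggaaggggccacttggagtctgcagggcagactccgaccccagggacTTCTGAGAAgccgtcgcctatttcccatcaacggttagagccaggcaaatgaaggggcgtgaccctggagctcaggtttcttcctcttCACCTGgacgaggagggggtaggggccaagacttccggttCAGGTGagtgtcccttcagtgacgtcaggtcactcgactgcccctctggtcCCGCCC

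A STAT site was found in 7.02% of all 32851 promoters of this length, and none of those of Cldn1, Cldn4, Cldn10 or Cldn15 held these letters. Among the claudins it was found before the second start of Cldn7, beginning 185 bases before that start, and before both of the more downstream of the 3 starts of Cldn12. The stretches before those 2 Cldn12 starts overlap and share the same STAT site and the same GC box. The E-box, found in 17.2% of all promoters, began 14 bases before the start of Cldn4, and 97 and 57 bases before the second start of Cldn7. GC boxes, found in 32.7% of all promoters, stood before 9 of the 13 claudin starts. Every claudin of the table except Cldn2 had at least 1 start with a GC box. Cldn2 had the TATA box, found in 7.59% of all promoters, 35 bases before its start. Cldn10 has 2 annotated starts of unlike composition, 36.0% GC at the first and 72.4% at the second, against a median of 52.4% over all promoters. A match is a description of letters, and binding was not measured here.

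Among the claudins that mainly seal the junction, Cldn1 had the largest ratio of the family. Cldn1, which the epidermis needs for its water barrier, had a signal of 200.0 in the knockout and 27.9 in the control for probe set 1437932_a_at. The knockout was 7.17-fold higher (log2 ratio 2.84), and 10 of the 8304 genes had a higher ratio. A probe set of this name can read several transcripts. The other 3 Cldn1 probe sets were dimmer: 1450014_at had 19.7 in the knockout and 2.05 in the control, which is at least 1.40-fold higher (log2 ratio of at least 0.49). Probe set 1438850_at had 2.33 in the knockout and 0.580 in the control, and 1438851_x_at had 2.02 in the knockout and 0.154 in the control, all under the floor. The knockout signal was the higher one in all 4 probe sets, but 2 of them were under the floor on both arrays and have no ratio. The brightest was the only one over the floor on both arrays. Without probe sets of that kind, Cldn1 therefore has only the bound of 0.49, which does not show whether the 2-fold limit was passed.

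Cldn4, a sealing claudin of many simple epithelia and a receptor for a clostridial enterotoxin, had a signal of 776 in the knockout and 371 in the control. It was 2.09-fold higher (log2 ratio 1.07), just past the limit, and was read by 1 probe set, 1418283_at. Cldn8, which in kidney collecting duct cells works together with Cldn4 in the chloride pathway between cells, had a signal of 173 in the knockout and 41.4 in the control for probe set 1449091_at. This was 4.18-fold higher (log2 ratio 2.06), and 48 genes had a higher ratio.

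Cldn3, a sealing claudin and also an enterotoxin receptor, lay within 2-fold with all 4 of its probe sets. The names of all 4 mark probe sets that can read several transcripts. The brightest, 1460569_x_at, had 4944 in the knockout and 3514 in the control, and the dimmest, 1426332_a_at, had 4038 in the knockout and 2442 in the control. The knockout was the higher array in each, by 1.41-fold to 1.65-fold. The log2 ratio was 0.57 ± 0.10 (SD over the 4 probe sets, which share the same 2 arrays), and over 2853 genes with several measured probe sets the SD between probe sets of a gene was 0.31. Of the 3 genes with more than 1 probe set, Cldn3 was the only one with all of them over the floor.

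Cldn3 and Cldn4 are next to each other on chromosome 5 in the RefSeq annotation, as neighbouring protein-coding genes. The gene on the other side of Cldn4, Mettl27, which encodes a methyltransferase-like protein, had signals of 54.4 in the knockout and 27.2 in the control, or 2.00-fold higher. The neighbours of Cldn15, Fis1 and Znhit1, lay within 2-fold, with 604 in the knockout and 614 in the control for Fis1, and 225 in the knockout and 283 in the control for Znhit1. These neighbours were looked up after the claudin values were known.

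Cldn5, the main claudin of endothelial junctions and of the blood-brain barrier, was only slightly over the floor. Probe set 1417839_at had 19.5 in the knockout and 20.9 in the control, a log2 ratio of -0.10. Of 10 endothelium markers, 6 (Pecam1, Tek, Kdr, Flt1, Tie1 and Emcn) were under the floor on both arrays. Cdh5, Egfl7 and Esam lay within 2-fold by their brightest probe sets. Eng had 9.21 in the knockout, under the floor, and 16.2 in the control. It was at least 1.16-fold lower, which does not show whether the 2-fold limit was passed. The summed signal of the 10 was 146 in the knockout and 134 in the control. The brightest of them, the adhesion molecule gene Esam, had 61.2 in the knockout and 33.1 in the control, and Egfl7 had 17.4 in the knockout and 17.9 in the control. A dimmer Egfl7 probe set, 1451427_a_at, had 8.69 in the knockout and 26.6 in the control, at least 1.90-fold lower. Another, 1451428_x_at, was at least 1.44-fold lower, and the last was under the floor on both arrays.

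The claudins that form channels differed in opposite directions. Cldn15, which makes a sodium-permeable pore in the small intestine, had a signal of 96.1 in the knockout and 30.2 in the control for its only probe set, 1418920_at. It was 3.18-fold higher (log2 ratio 1.67), and 129 genes had a higher ratio. The control signal was dim: with a floor at the 60th percentile (64.3) it fell under the floor, and only a log2 ratio of at least 0.58 could be given.

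Markers of mesothelium, the outer lining of the uterus, were higher in the knockout array as well. All 4 that the array represents were over the floor on both arrays. Of them, 3 (75%) passed the 2-fold limit upward, against 7.37% of all genes with a ratio. Upk3b, a uroplakin gene, had 372 in the knockout and 145 in the control. Gpm6a, a membrane glycoprotein gene, had 153 in the knockout and 53.8 in the control, and Msln, which encodes mesothelin, had 71.2 in the knockout and 34.7 in the control. Wt1, a transcription factor gene, was within 2-fold at 33.5 in the knockout and 21.5 in the control. Their summed signal was 631 in the knockout and 255 in the control, with a median log2 ratio of 1.20. Their part in the Cldn15 result and in the other claudin results was not tested. In such bulk RNA, more cells of a type and more RNA per cell cannot be told apart.

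Cldn10, whose isoforms with different first exons make a cation or an anion channel, was the lower member. Probe set 1426147_s_at had a signal of 79.2 in the knockout and 319 in the control. The knockout array was 4.03-fold lower (log2 ratio -2.01), at 24.8% of the control signal, and 254 genes had a lower ratio. The name of this probe set marks one that can read several transcripts, and it was the only one of the gene, so the isoforms and both starts shown above cannot be told apart.

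Gland and luminal markers had single genes in both directions, and their summed signals were led by single bright genes. Among 6 gland markers, Spink1, a trypsin inhibitor gene, had 155 in the knockout and 14.2 in the control, while the transcription factor gene Foxa2 had 23.9 in the knockout and 22.01 in the control. Sox9, a transcription factor gene of progenitor and glandular epithelium, had 3.69 in the knockout and 94.9 in the control, at least 6.76-fold lower, and its second probe set was at least 3.60-fold lower. Ttr was under the floor on both arrays. The summed signal of the 6 was 227 in the knockout and 156 in the control, and Spink1 alone gave 155 of the 227. The median log2 ratio of the 5 gland markers with a ratio was 0.12. Among 5 luminal markers on the array, Calb1 had 8267 in the knockout and 5018 in the control, and Msx1 had 2193 in the knockout and 1234 in the control. The dimmer probe sets of both genes lay beyond 2-fold: Calb1 had 1192 in the knockout and 198 in the control, and Msx1 had 850 in the knockout and 324 in the control. Muc1 was 4.22-fold lower and Met was under the floor on both arrays. The 5 luminal markers summed to 10837 in the knockout and 6952 in the control, mostly from Calb1. The median log2 ratio of the 4 luminal markers with a ratio was 0.37. The part of gland and luminal markers in the Cldn10 result was not tested.

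Cldn2, the cation and water channel of leaky epithelia such as kidney proximal tubule, was under the floor on both arrays with both probe sets. Probe set 1417232_at had 5.45 in the knockout and 7.93 in the control, and 1417231_at had 0.793 in the knockout and 4.03 in the control. No ratio is given for it.

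Cldn7, which binds the adhesion protein EpCAM and lies along the lateral membrane as well as in the junction, differed least. Its probe set 1448393_at had 3341 in the knockout and 3349 in the control, a log2 ratio of -0.004. Epcam itself had 2335 in the knockout and 3003 in the control (log2 ratio -0.36). Epithelial markers were bright on both arrays, with 4289 in the knockout and 4220 in the control for Krt8, and 4202 in the knockout and 3180 in the control for Krt18, as the cell type label states. The summed signal of 6 epithelial markers was 17322 in the knockout and 17155 in the control, and Krt7 alone of them passed the limit, 3.46-fold lower.

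**Figure D2:**
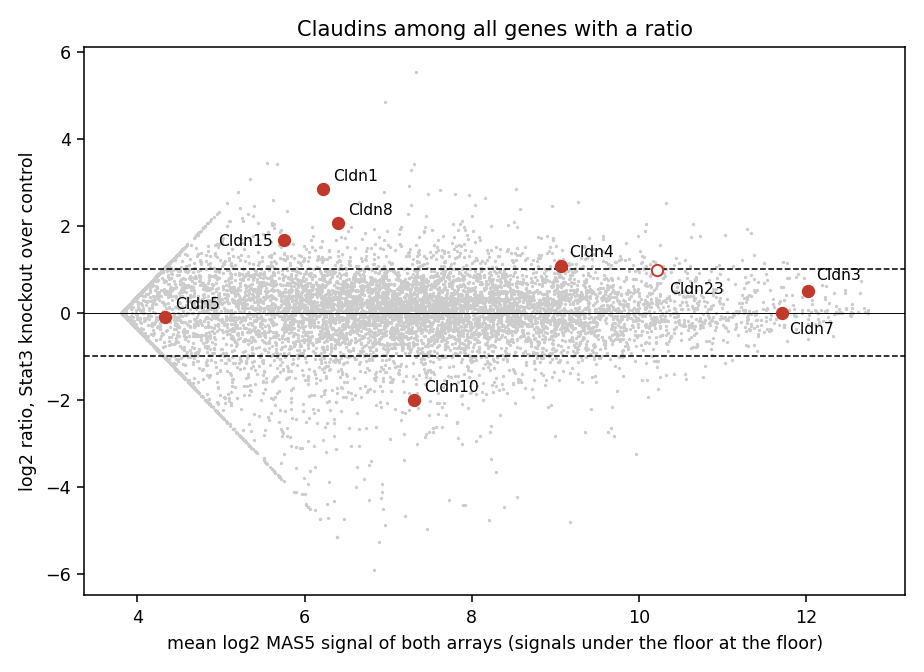
Log2 ratio of knockout over control (vertical axis) against the mean log2 signal of both arrays (horizontal axis) for the 8304 genes with a ratio, in grey; filled red points are the 8 claudins with a ratio, the open point is Cldn23, and dashed lines mark 2-fold. Cldn1, Cldn8, Cldn15 and Cldn4 lie above the upper line, Cldn10 below the lower one, and Cldn23 just inside the upper one.

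Further claudin genes on the array add 1 with a signal over the floor. Cldn23 had a signal of 1669 in the knockout and 849 in the control for probe set 1424409_at, 1.97-fold higher (log2 ratio 0.98), just inside the limit that Cldn4 passed at 2.09-fold. The other 9, Cldn6, Cldn9, Cldn11, Cldn13, Cldn14, Cldn16, Cldn18, Cldn19 and Cldn34c1, were under the floor on both arrays. Cldn16, which the kidney needs to reabsorb magnesium and which is the neighbour of Cldn1 on chromosome 16, had 2.46 in the knockout and 2.22 in the control. Over all 19 claudin genes on the array, 9 had a ratio, with a median log2 ratio of 0.98, and the same 4 and 1 were past the limit. Cldnd1, a claudin domain gene outside the family proper, had 219 in the knockout and 169 in the control.

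Most partners of claudins in the tight junction lay within 2-fold. Of 26 such genes with a ratio, 0 were higher and 2 (7.69%) lower by 2-fold or more, against 7.37% higher and 9.92% lower over all genes, and 24 lay in between. The median log2 ratio of the 26 was 0.20, and its difference from that of the claudins was not tested. Tjp1, the ZO-1 scaffold gene whose product binds the tails of most claudins, had 902 in the knockout and 666 in the control. Ocln, which encodes the strand protein occludin, had 658 in the knockout and 388 in the control, or 1.69-fold higher. Jam2 was 1.78-fold higher by its brightest probe set, which the counts use (1501 in the knockout and 842 in the control). A dimmer Jam2 probe set, 1419288_at, passed the limit, with 372 in the knockout and 135 in the control, or 2.75-fold higher. The remaining Jam2 probe sets were 1.72-fold and 1.32-fold higher. Cgnl1, which encodes the cytoplasmic plaque protein paracingulin, had 116 in the knockout and 244 in the control, or 2.10-fold lower. Amot, which encodes the polarity and Hippo pathway protein angiomotin, had 25.9 in the knockout and 54.3 in the control, or 2.10-fold lower.

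Among 13 genes for proteins that bind, cleave or modify claudins, 0 were higher and 2 (15.4%) lower by 2-fold or more. Over all genes with a ratio, 7.37% were higher and 9.92% lower. The median log2 ratio of the 13 was -0.06. Lnx1, a ubiquitin ligase gene whose product can take claudins out of the junction, had 49.1 in the knockout and 109 in the control, or 2.21-fold lower, and a dimmer probe set was 1.99-fold lower. The tetraspanin gene Cd81 was at the limit, with 418 in the knockout and 836 in the control (2.00-fold lower). Prss8, which encodes the membrane protease prostasin, had 461 in the knockout and 241 in the control, within the limit at 1.91-fold higher.

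Of 17 transcription factors known to act on claudin genes or on epithelial identity, 7 had a ratio. Of these, 1 (14.3%) was higher and 0 lower by 2-fold or more, against 7.37% higher and 9.92% lower over all genes. Ehf, an epithelial ETS factor gene, had 835 in the knockout and 355 in the control, or 2.35-fold higher, and its other 2 probe sets were 2.40-fold and 2.26-fold higher. Grhl2, an activator of Cldn4 and of Cdh1 in several epithelia, had 422 in the knockout and 271 in the control, or 1.56-fold higher, while a dimmer Grhl2 probe set went the other way, with 20.3 in the knockout and 33.3 in the control. Elf3, a related ETS factor gene, had 432 in the knockout and 842 in the control, or 1.95-fold lower. The repressor genes Snai1, Snai2, Zeb1, Zeb2, Twist1 and Twist2, which switch claudins off in mesenchymal cells, were under the floor on both arrays.

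**Figure D3:**
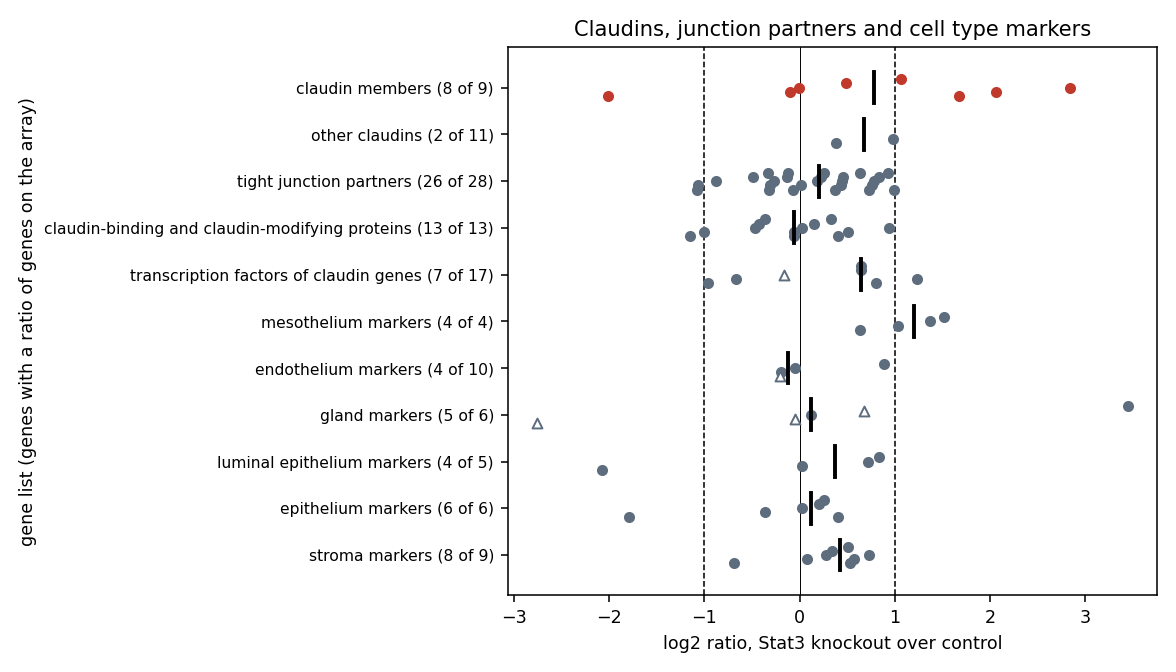
Log2 ratio of knockout over control (horizontal axis) of each gene with a ratio, by gene list; points are genes, open triangles are genes under the floor on 1 array, black bars are medians, dashed lines mark 2-fold, and the labels give the genes with a ratio of those on the array. The claudins spread from -2.01 to 2.84 around a median of 0.78, while 24 of 26 tight junction partners lie between the dashed lines, and the mesothelium markers have a median of 1.20.

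Markers of the remaining cell types differed by less than 2-fold in sum. The 9 stroma markers summed to 3565 in the knockout and 2581 in the control, with 0 of 8 past the limit and Hand2 under the floor on both arrays; Dcn, a matrix proteoglycan gene, had 1753 in the knockout and 1235 in the control, and the collagen gene Col3a1 had 721 in the knockout and 570.0 in the control. The 6 smooth muscle markers summed to 103 in the knockout and 146 in the control, with Myh11, Des, Cnn1 and Actg2 under the floor on both arrays. The actin gene Acta2 had 71.6 in the knockout and 95.2 in the control, and Tagln had 19.9 in the knockout and 24.7 in the control. The 9 macrophage and leukocyte markers summed to 525 in the knockout and 430.1 in the control, with 1 of 9, the complement gene C1qa, past the limit (67.4 in the knockout and 33.2 in the control). The receptor gene Csf1r had 144 in the knockout and 85.8 in the control, and Tyrobp had 66.9 in the knockout and 57.5 in the control. Lower in the knockout were Cd68, with 44.4 in the knockout and 81.1 in the control, and Fcer1g, with 29.8 and 39.1. The remaining markers of this list were higher in the knockout, within 2-fold. Over all genes with a ratio, 7.37% were higher and 9.92% lower by 2-fold or more. The part of these markers in the claudin results was not tested.

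**Figure D4:**
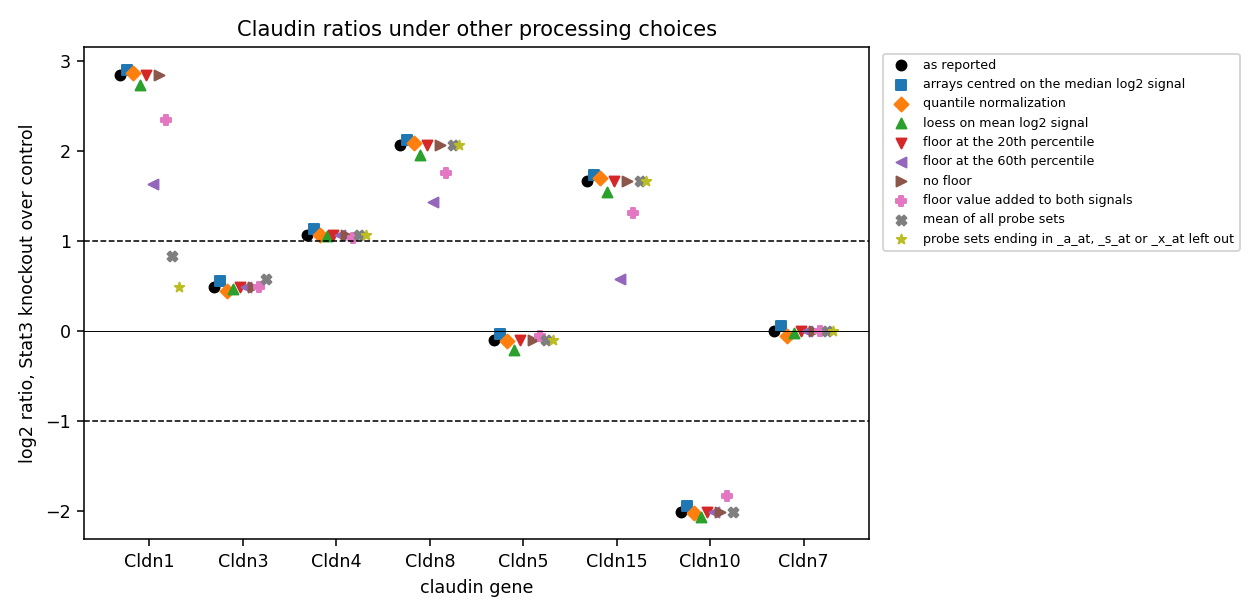
Log2 ratio of knockout over control (vertical axis) of the 8 claudins with a ratio as reported (black circles) and under 9 other choices of scaling, floor or probe set (coloured symbols); dashed lines mark 2-fold. Cldn4, Cldn8 and Cldn10 keep their side of the lines wherever they have a value, while Cldn1 lies between 0.49 and 2.91 and Cldn15 between 0.58 and 1.73; the lowest symbol of Cldn1 and of Cldn15 is a lower bound, from a control signal under the floor.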

How the data were processed

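Gene expression was measured in 1 Stat3 knockout and 1 control sample, grouped by the genotype label. The authors deposited 1 linear intensity value for each of 22690 probe sets on both arrays, made with MAS5 in Affymetrix Expression Console 1.1, per the submitters' processing notes. Detection calls were not used here. Probe sets were named through the platform annotation, with symbols updated by gene ID through RefSeq (GRCm38.p6; 20351 of 20380 probe sets with 1 gene, 99.9%). The 64 control probe sets and those with several genes (691) or none (1555) were left out. Each gene took its brightest probe set, by the mean of log2 signals. Signals under 14.0 were set to that floor, no pseudocount was added, and log2 ratios of knockout over control were counted at 2-fold; a fold against the floor is given as at least. Summed signals of marker lists were added up without the floor, so they include genes under it. No test exists with 1 array a group. The steps were tested on simulated data with Python 3.11.15, numpy 2.4.6, pandas 2.3.3 and statsmodels 0.14.6.

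The claudins, gene lists and limits were chosen with earlier results of these data known. Text names all claudins on the array, Stat3, up to 3 genes past 2-fold from each list with the largest ratio over the floor on both arrays, and the 2 brightest genes of each marker list. Tjp1, Ocln, Jam2, Epcam, Prss8, Grhl2, Elf3, Msln, Wt1, Sox9, Muc1, Krt7, the neighbouring genes and markers under the floor were named after their values were seen. So were Cd68, Fcer1g, Cdh5 and Eng. Alternatives changed the scaling (median centring, quantile normalization, loess, span 0.3), the floor (none, at the 20th or the 60th percentile, or added to both signals), the probe set (mean of all after flooring, or those ending in _a_at, _s_at or _x_at left out) and the limit (1.5-fold, 3-fold).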

Additional observations from a re-analysis of the deposited data

How the results depend on the processing

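The count of claudins past the limit in the higher direction was 3 or 4 under all 11 alternatives, against 4 as reported. That in the lower direction was 1 except with probe sets ending in _a_at, _s_at or _x_at left out. It was then 0 because Cldn10, like Cldn3, had no probe set left. The median log2 ratio of the claudins, 0.78 as reported, was 0.49 with the 20th percentile floor and with no floor. Cldn2 also has a ratio there. The excess over the median of all genes was then 0.41 and 0.40, against 0.73 as reported. Under the other 7 alternatives that give a median, the median of the claudins lay between 0.58 and 0.84. The 0.58, from the 60th percentile floor, was the Cldn15 bound. The medians with probe sets left out (0.78) or averaged (0.70) took in a Cldn1 value that rests on a bound. Of 69 single ratios, 62 moved by less than the SD between probe sets of a gene (0.31) and 7 by more, and none of those past the limit changed sign. Those 7 were 4 of Cldn1, 2 of Cldn15 and 1 of Cldn8. Many of the 62 could not move. A gene with 1 probe set has the same ratio when probe sets are averaged. A gene over the floor on both arrays has the same ratio with a lower floor or none. The 62 is therefore no measure of how stable the ratios are. Cldn1 with that kind of probe set left out (at least 0.49) had only a bound, since the control signal was then under the floor. For the same reason the 60th percentile floor gave only bounds for Cldn1 (at least 1.64), Cldn8 (at least 1.43) and Cldn15 (at least 0.58). The mean of all Cldn1 probe sets gave 0.83 because 2 of the 4, under the floor on both arrays, entered as 0 and 1 as its bound. The share of all genes past the limit went with the setting, from 5.17% to 15.5% higher and 7.27% to 14.3% lower at 2-fold. No paired analysis was possible because each group has 1 array. Signals near the floor, such as those of Cldn5 and of the dimmer Cldn1 probe sets, limit what the arrays can show.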
